A study of Rattus norvegicus with 8 samples.

Results

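Genes for 10 nuclear receptors that govern metabolism in liver were named for description, and 8 of them had a probe set on the array, namely Rxra, Rxrb, Ppara, Hnf4a, Nr1h3, Nr3c1, Nr1d1 and Thrb. The members were chosen by gene symbol, with no cut-off on signal, and with the D3T against vehicle fold changes of these arrays already known. Every probe set matched to 1 of these symbols was taken, 13 of the 8740 probe sets that are not array controls, or 8 of 4736 named genes. Nr1i2 and Nr1i3, the genes of the foreign-compound sensors PXR and CAR, had none and were not analysed here. Liver RNA came from 8 male Fischer 344 rats, all kept on AIN 76A chow and labelled with an age of 6 without a unit, and each rat had its own Affymetrix Rat Genome U34 array. The D3T group (n = 4) was given 3H-1,2-dithiole-3-thione by gavage, at 0.3 mmol per kg body weight in saturated sucrose on days 1, 3 and 5. The vehicle group (n = 4) was given 0.2 ml of saturated sucrose, with the same days labelled for 3 of its rats and none labelled for vehicle replicate 2. The comparison of D3T with vehicle asks which liver transcripts differ after this inducer of detoxification enzymes.

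Nuclear receptors are transcription factors that bind DNA through a pair of zinc fingers and change the activity of their target genes when a small lipophilic ligand enters their ligand-binding domain. Many of them, among them the receptors for fatty acids (PPAR alpha), oxysterols (LXR alpha) and thyroid hormone, act as heterodimers with a retinoid X receptor, whereas HNF4 alpha and the glucocorticoid receptor bind as homodimers. In liver they set bile acid, lipid, glucose and drug metabolism, and HNF4 alpha maintains the hepatocyte programme.

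The promoter of Rxra is shown because it had the largest difference among the receptors, and those of Rxrb and Hnf4a because each has a probe set that passed the test. Both RefSeq starts of Hnf4a are given, since the positions of the array's probes were not used here. Each is a window of 250 bases before to 50 bases after an annotated start in RefSeq (build GRCr8), written 5′ to 3′ along the gene's strand. Capitals mark the GC box GGGCGG and the antioxidant response element core TGACNNNGC on either strand.
Rxra, chr3:31387642-31387941, plus strand: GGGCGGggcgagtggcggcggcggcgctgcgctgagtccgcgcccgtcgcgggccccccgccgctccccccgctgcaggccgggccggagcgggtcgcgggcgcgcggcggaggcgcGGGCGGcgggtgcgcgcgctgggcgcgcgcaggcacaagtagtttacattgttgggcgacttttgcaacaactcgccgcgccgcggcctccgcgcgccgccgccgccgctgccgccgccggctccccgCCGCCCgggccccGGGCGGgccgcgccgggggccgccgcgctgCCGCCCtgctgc
Rxrb, chr20:4824610-4824909, minus strand: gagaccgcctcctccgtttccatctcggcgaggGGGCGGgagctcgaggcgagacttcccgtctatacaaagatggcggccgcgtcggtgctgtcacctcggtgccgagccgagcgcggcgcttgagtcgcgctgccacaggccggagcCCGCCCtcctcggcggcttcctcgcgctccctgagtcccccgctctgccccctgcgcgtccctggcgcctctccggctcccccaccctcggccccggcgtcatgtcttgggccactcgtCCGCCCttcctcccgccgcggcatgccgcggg
Hnf4a upstream start, chr3:172605970-172606269, plus strand: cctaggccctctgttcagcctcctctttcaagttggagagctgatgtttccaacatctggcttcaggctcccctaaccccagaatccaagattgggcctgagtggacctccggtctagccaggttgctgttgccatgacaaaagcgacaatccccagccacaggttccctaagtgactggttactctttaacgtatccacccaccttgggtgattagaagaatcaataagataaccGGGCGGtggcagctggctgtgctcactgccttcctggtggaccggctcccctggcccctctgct
Hnf4a downstream start, chr3:172641586-172641885, plus strand: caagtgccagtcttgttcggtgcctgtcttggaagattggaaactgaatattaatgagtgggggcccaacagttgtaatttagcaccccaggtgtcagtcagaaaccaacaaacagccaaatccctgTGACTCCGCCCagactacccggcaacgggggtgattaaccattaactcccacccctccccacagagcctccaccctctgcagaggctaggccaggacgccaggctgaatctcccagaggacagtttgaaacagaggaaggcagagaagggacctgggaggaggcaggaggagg
The Rxra window held 5 GC boxes and 84.7% G and C, and the Rxrb window 3 GC boxes and 74.0% G and C, against a median of 51.7% G and C over 33469 RefSeq promoters. Each Hnf4a window held 1 GC box and 55.3% G and C. High G and C was not particular to Rxra and Rxrb. Among receptors without a call, the Thrb window held 4 GC boxes (76.0% G and C) and the Ppara window 2 (73.7%). The Nr3c1 windows held 4 (79.0%) and 1 (66.0%). The windows of Nr1d1 (54.7% and 59.0%) and Nr1h3 (48.0%) held none. A GC box was present in 33.1% of all promoters of this length. The core TGACNNNGC was found in the downstream Hnf4a window, where it overlaps the GC box, and in the Thrb window, and in 12.1% of all promoters. The receptor-binding motif AGGTCA was in none of the 13 windows of the 10 genes and in 16.2% of all promoters. These matches describe letters in a short window and not bound sites.

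Rxrb and, by 1 of its 3 probe sets, Hnf4a passed the test as higher after D3T. Both genes were listed with these fold changes known, and they passed in only 9 (Rxrb) and 5 (Hnf4a) of 18 other settings. Rxra, described without a test, had the largest difference among the receptor probe sets. The probe sets of Nr1h3 and Thrb, and the 2 of Nr3c1 with signal, had lower means after D3T without passing the test. Signals are MAS5 values, arbitrary brightness units per probe set, rescaled to a common 2% trimmed mean of 500 per array. The low-signal range is taken here as values under the 20th percentile of all signals, a floor of 20.4, and values below it were raised to it before log2 was taken. The 60% of probe sets with the highest mean were tested with limma, and a call required a Benjamini-Hochberg adjusted p under 0.05 over all 5244 tested. Of the 13 receptor probe sets 11 entered the fit, from 7 genes. Leaving out Rxra, 2 of the other 10 were called, both as higher, where 10.7% of all tested probe sets were called (4.2% as higher and 6.48% as lower). The D3T arrays lay wholly above the vehicle arrays for 3 of these 10 and wholly below for 1, against 7.89% and 11.3% of all tested probe sets (19.2% in either direction). Their median log2 fold change was 0.33 over the 10 and 0.02 over all tested probe sets. Rxra stood among the largest rises already known when the genes were listed, and the counts describe the members and support nothing further.

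**Figure D1:**
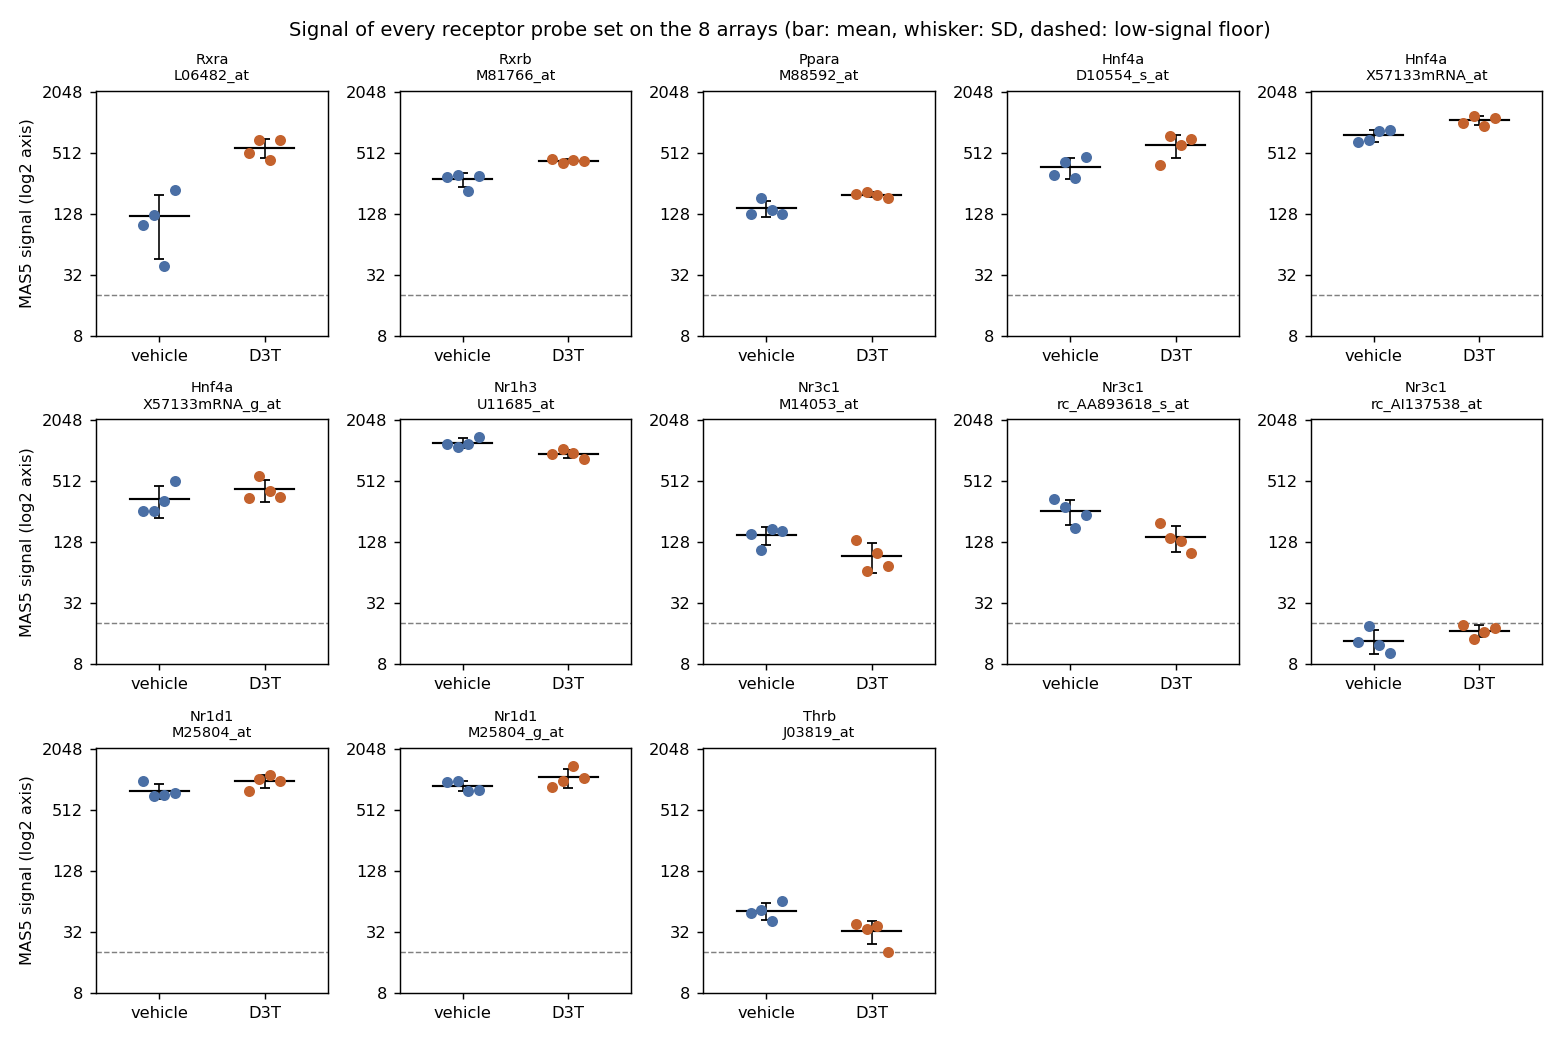
MAS5 signal (log2 axis) of each of the 13 receptor probe sets on the 4 vehicle and 4 D3T arrays, with the mean as a bar, the SD as a whisker and the low-signal floor of 20.4 as a dashed line. Rxra, Rxrb, Ppara and the Hnf4a probe set X57133mRNA_at have all D3T points above all vehicle points, Nr1h3 and Thrb have them below, and the Nr3c1 probe set rc_AI137538_at lies under the floor on all 8 arrays.

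Rxra encodes the retinoid X receptor form that is the main heterodimer partner in liver. Its probe set L06482_at gave signals of 99.9, 125.1, 39.4 and 222.2 in vehicle replicates 1 to 4 and of 507.1, 687.2, 437.4 and 682.7 in D3T replicates 1 to 4. All D3T arrays were above all vehicle arrays, with a gap of 215.2 signal units between the groups. The means were 121.7 ± 76.0 (SD, n = 4) in vehicle and 578.6 ± 126.1 after D3T, a log2 fold change of 2.47 ± 0.43 (SE), given as a description with no test because the gene was listed with this rise known. The vehicle arrays were widely spread, with a coefficient of variation of 62.5% against 21.8% after D3T. Vehicle replicate 3, the lowest, was 1.94 times the floor, and it was the 1 vehicle array that lay under the 40th percentile of all signals (64.9), while the lowest D3T array was 21.5 times the floor. Without vehicle replicate 3 the log2 fold change was 2.01 ± 0.29, and without vehicle replicate 4, the highest, it was 2.85 ± 0.37.

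Rxrb encodes the second retinoid X receptor form, which most tissues express. Its probe set M81766_at read 296.4, 309.8, 215.3 and 303.0 in vehicle and 445.6, 411.6, 437.3 and 426.6 after D3T. The groups did not overlap and the D3T arrays were close together, with a coefficient of variation of 3.41% against 15.7% in vehicle, where replicate 3 lay below the other arrays. The mean rose from 281.1 ± 44.2 (SD, n = 4) to 430.3 ± 14.7, which was 1.55-fold on geometric means (log2 fold change 0.63 ± 0.16, adjusted p = 0.0343). The lowest vehicle array was 10.6 times the floor. The call ended in 7 of the 8 fits without 1 array (adjusted p up to 0.0863), all but the one without vehicle replicate 2, and with a log2 fold change of 0.51 without vehicle replicate 3.

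Hnf4a, the other gene with a called probe set, is a master regulator of hepatocyte genes and had 3 probe sets. X57133mRNA_at read 656.0, 690.6, 849.9 and 854.1 in vehicle and 1018, 1191, 945.8 and 1147 after D3T, with no overlap. Its mean rose from 762.6 ± 104.1 (SD, n = 4) to 1075 ± 113.6, or 1.41-fold (log2 fold change 0.50 ± 0.14, adjusted p = 0.0477). This call was close to the threshold and ended in all 8 fits without 1 array (adjusted p from 0.0527 to 0.116), with median centring (0.0605), without the filter (0.0719) and with no intensity trend (0.0862).

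The other 2 Hnf4a probe sets had positive fold changes that did not pass. D10554_s_at, whose name marks probes that can match more than 1 transcript, read 308.5, 415.3, 287.1 and 469.6 in vehicle and 389.9, 756.5, 615.6 and 696.4 after D3T. D3T replicate 1 fell inside the vehicle range and the other 3 D3T arrays were above it (log2 fold change 0.72 ± 0.24, adjusted p = 0.0765). X57133mRNA_g_at, built on the same sequence as the called probe set, ran from 259.7 to 520.5 in vehicle and from 353.6 to 584.6 after D3T, with overlapping groups (log2 fold change 0.35 ± 0.25, adjusted p = 0.373). All 3 probe sets thus had positive estimates, from 0.35 to 0.72, with 1 of them past the threshold.

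**Figure D2:**
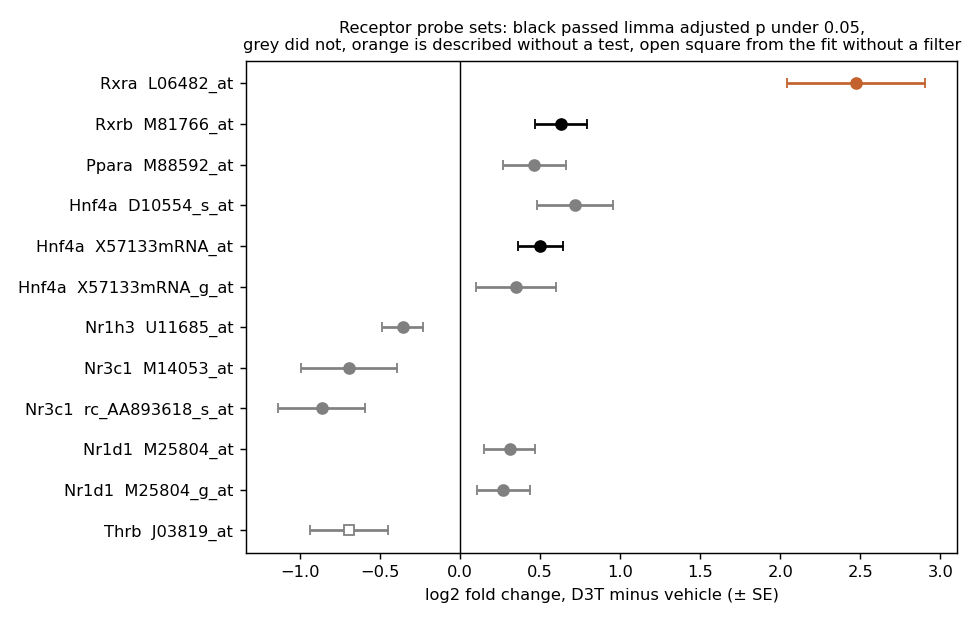
Log2 fold change of D3T minus vehicle with its SE for the 12 receptor probe sets that had signal above the floor. Black points passed an adjusted p of 0.05 (Rxrb and 1 of 3 Hnf4a probe sets), grey points did not, the orange point is Rxra, which is described without a test, and the open square for Thrb comes from the fit without a filter on low signals.

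Among the receptors that pair with a retinoid X receptor, Ppara and Nr1h3 lay on opposite sides of no change and neither passed. Ppara encodes the fatty acid sensor that drives fatty acid oxidation. Its probe set M88592_at read 128.1, 183.8, 141.1 and 127.8 in vehicle and 203.9, 208.9, 195.2 and 184.4 after D3T. All D3T arrays were above all vehicle arrays, but D3T replicate 4 exceeded vehicle replicate 2 by only 0.599 signal units. The log2 fold change was 0.46 ± 0.20, with an adjusted p of 0.149 that was never under 0.05 in 17 other settings (0.0756 at the lowest).

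Nr1h3 encodes LXR alpha, the oxysterol sensor that hepatocytes and macrophages use to control cholesterol export and lipid synthesis. Its probe set U11685_at read 1188, 1125, 1208 and 1417 in vehicle and 951.2, 1071, 978.9 and 846.0 after D3T, with every D3T array lower. The log2 fold change was -0.36 ± 0.13 (means 1235 ± 126.9 and 961.7 ± 92.4), with an adjusted p of 0.0929 that did not pass in any of 18 other settings. The lowest array was 41.5 times the floor, so low signal does not limit this probe set. Beside it, the summed signal of 7 Kupffer cell marker genes, which mark the resident liver macrophages, ran from 5508 to 6217 in vehicle and from 4285 to 5266 after D3T, and its part in the Nr1h3 difference was not tested. The markers did not move together. Of the 6 tested, 4 had negative and 2 positive log2 fold changes, from -1.09 for Aif1 to 0.80 for Cd14. In bulk liver RNA fewer cells of a type and less RNA per cell cannot be told apart.

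Thrb encodes the thyroid hormone receptor form that predominates in liver, and its probe set J03819_at was too dim for the filter. It read 48.7, 53.0, 40.8 and 64.8 in vehicle and 38.4, 34.5, 37.0 and 20.3 after D3T, so all D3T arrays were lower. All 8 arrays were under the 40th percentile of signals, the D3T mean was only 1.60 times the floor, and D3T replicate 4 was below it. In the fit without a filter, where 3.54% of 8740 probe sets were called, the log2 fold change was -0.69 ± 0.24 and did not pass (adjusted p = 0.176). With a covariate for RNA integrity, the log2 ratio of 3′ to 5′ actin signal, it was -0.07 ± 0.24.

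Nr3c1 encodes the glucocorticoid receptor, which induces gluconeogenic and amino acid-degrading enzymes, and its 2 probe sets with signal had negative fold changes that did not pass. M14053_at read 154.0, 106.7, 173.3 and 165.9 in vehicle and 136.3, 67.3, 101.5 and 74.2 after D3T, and the groups overlapped through vehicle replicate 2 and D3T replicate 1. Its log2 fold change was -0.69 ± 0.30 (adjusted p = 0.150). The shared-sequence probe set rc_AA893618_s_at read 346.1, 289.4, 176.0 and 237.0 in vehicle and 199.9, 140.5, 133.0 and 101.7 after D3T, again with D3T replicate 1 inside the vehicle range. Its log2 fold change was -0.86 ± 0.27 (adjusted p = 0.0659), and with the actin covariate it was -0.42. The third probe set, rc_AI137538_at, lay under the floor on all 8 arrays, at 10.3 to 19.6, so no change could be measured with it.

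Nr1d1 encodes REV-ERB alpha, a repressor of the circadian clock whose liver transcript cycles over the day, and the hour of tissue collection is not given in the sources used here. M25804_at read 994.0, 707.7, 722.8 and 748.7 in vehicle and 787.0, 1026, 1137 and 979.2 after D3T. Vehicle replicate 1 was apart from the remaining vehicle arrays, at 994.0, and the groups overlapped (log2 fold change 0.31 ± 0.16, adjusted p = 0.225). The partner probe set M25804_g_at of the same sequence ran from 783.6 to 982.7 in vehicle and from 869.3 to 1406 after D3T (log2 fold change 0.27 ± 0.16, adjusted p = 0.299). Both probe sets were at least 34.8 times the floor on every array.

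**Figure D3:**
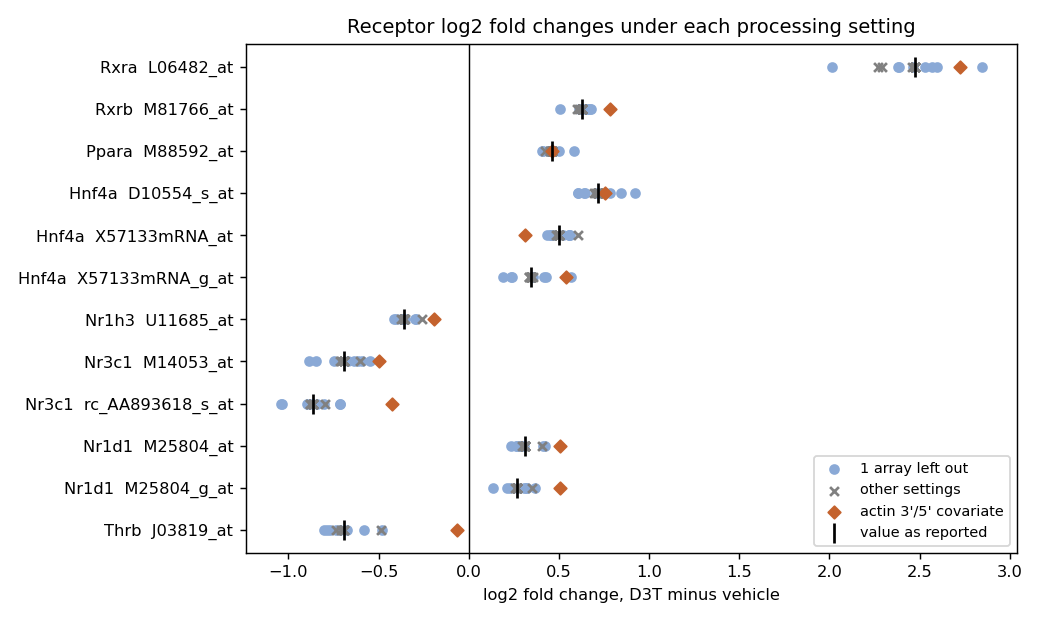
Log2 fold change of D3T minus vehicle for each receptor probe set under every processing setting: the value as reported (black bar), fits without 1 array (blue circles), the actin 3′/5′ covariate (orange diamonds) and other settings (grey crosses). No probe set changed sign. Rxra ranged from 2.01 to 2.85 and Thrb from -0.80 to -0.07.

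The log2 ratio of the 3′ to the 5′ actin control probe sets, a measure of RNA integrity, averaged 0.62 ± 0.07 (SD, n = 4) for vehicle rats and 0.40 ± 0.13 for D3T rats (exact two-sided permutation p = 0.0571, where 70 assignments allow 0.0286 at the lowest). The same ratio for Gapdh was 0.90 ± 0.16 and 0.65 ± 0.24 (exact permutation p = 0.114). With the actin ratio in the model the log2 fold changes were 2.73 ± 0.70 (SE) for Rxra and 0.78 ± 0.26 for Rxrb (adjusted p = 0.210). The called Hnf4a probe set had 0.31 ± 0.22 (adjusted p = 0.556), and neither Rxrb nor Hnf4a passed. Without the ratio the SEs were 0.43, 0.16 and 0.14, and the Rxrb estimate was 0.63. Only vehicle replicate 3 (0.53) had a lower actin ratio than the highest D3T array (0.55). In this design the ratio and the treatment cannot be told apart. The hepatocyte markers gave summed signals of 168167 to 240442 in vehicle and 205250 to 269971 after D3T, with all 11 genes on the array above the floor on at least 1 array. Of these 11, the fibrinogen gene Fgb was called as lower (1.74-fold) and the others did not pass. Their log2 fold changes were positive for 7 and negative for 4 of the 11, and the unadjusted limma p was under 0.05 for 5. Of the tested Kupffer cell markers Aif1 and C1qb were called lower and Cd14 higher among 6, of the stellate cell and fibroblast markers Col3a1 lower among 6, and of the endothelial markers Lyve1 lower among 3. Over all tested probe sets 4.2% were called as higher and 6.48% as lower. The Col3a1 call held in 7 of 18 other settings and the Lyve1 call in 4 of 17, against 15 of 17 for Aif1, 17 of 18 for C1qb and for Cd14, and 16 of 18 for Fgb. None of 4 cholangiocyte or 5 blood cell markers passed limma (unadjusted p under 0.05 for 1 and 3, against 1536 of all 5244 tested probe sets). The summed signal of 9 blood cell markers was 15056 to 20794 in vehicle and 10554 to 14546 after D3T, and S100a9 was under the floor on all arrays. The stellate sums ran from 2024 to 3516 and from 1681 to 2214, the endothelial sums from 623.2 to 772.3 and from 430.1 to 640.5, and the cholangiocyte sums from 2020 to 3023 and from 1891 to 2661. The part of these differences in the receptor values was not tested.

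Over 8 arrays, the log2 signals of Rxra, taken as deviations from their mean, differed least from those of Gpx2, Nqo1, Adh1c and Agtpbp1 among all tested genes. The root mean square difference was 0.38 for Gpx2, a glutathione peroxidase, 0.58 for the quinone reductase gene Nqo1, 0.65 for the alcohol dehydrogenase gene Adh1c and 0.65 for Agtpbp1, a carboxypeptidase. Gpx2 read 55.4, 79.0, 25.4 and 69.9 in vehicle and 263.6, 222.2, 174.3 and 341.9 after D3T. As with Rxra, vehicle replicate 3 was its lowest array, and this also held for Nqo1 and Agtpbp1 but not for Adh1c. That array was near the low-signal range for Gpx2 (1.25 times the floor) and Agtpbp1 (1.15 times). Agtpbp1 did not pass limma (adjusted p = 0.0671). D3T replicate 3 was the lowest D3T array for Rxra and for each of these genes. The measure is dominated by the difference between the groups, which chose Rxra, and it is a description.

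**Figure D4:**
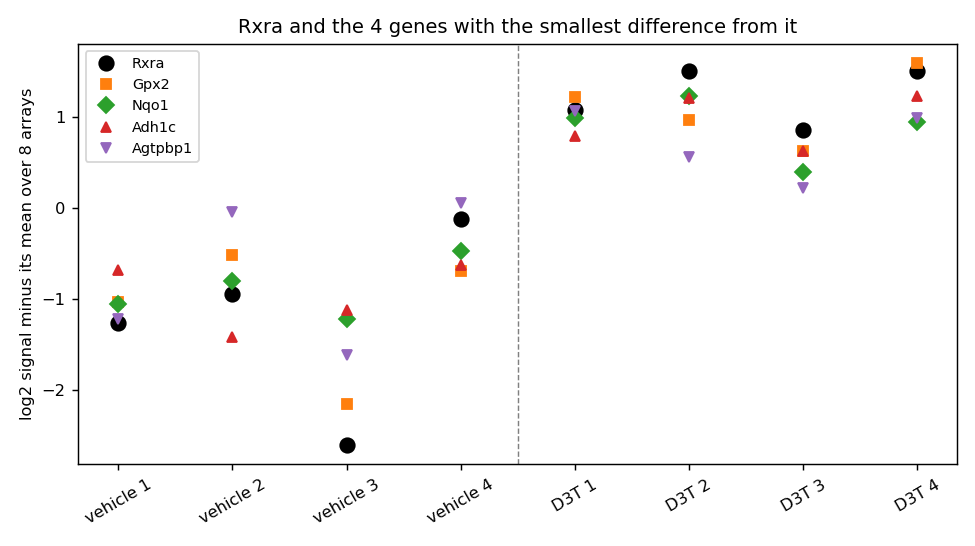
Log2 signal minus its mean over the 8 arrays (vertical axis) for Rxra (black) and the 4 genes nearest to it, by array, with the groups divided by a dashed line. Rxra and Gpx2 are lowest on vehicle replicate 3.

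The other nuclear receptor genes showed no call. Of 36 listed genes 27 were on the array and 16 were tested, and limma called 0, where 10.7% of all tested probe sets were called. With so few genes, 0 calls is not a result about these receptors. An unadjusted limma p under 0.05 was found for 3 of the 16, against 1536 of all 5244 tested probe sets. The median log2 fold change was -0.05 against 0.02 over all tested probe sets. The gene with the highest mean signal, the retinoic acid receptor gene Rara, gave 2498 ± 782.4 (SD, n = 4) and 3327 ± 2042 (adjusted p = 0.652), and 1 of its 3 probe sets had the opposite sign. Its sign also turned without D3T replicate 4 (-0.08) and with the actin covariate (-0.67). Rxrg, the third retinoid X receptor gene and also named after its values were seen, had log2 fold changes of -0.0067 ± 0.22 (adjusted p = 0.985) for its brightest probe set and -0.99 ± 0.44 (adjusted p = 0.163) for the other tested one. Nr1d2, the paralog of Nr1d1 and named after its values were seen, had a log2 fold change of -0.64 ± 0.27 (adjusted p = 0.142), opposite in sign to Nr1d1.

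Among coregulators and receptor chaperones 1 of 7 tested genes was lower and none higher, with a median of -0.27. This was Hdac2, a histone deacetylase of corepressor complexes, which fell from 283.0 ± 7.58 (SD, n = 4) to 143.1 ± 36.2 (2.03-fold, adjusted p = 0.0167). In retinoid handling, which supplies the ligands of retinoid receptors, 1 of 6 tested genes was higher, the retinaldehyde dehydrogenase gene Aldh1a1, with a log2 fold change of 2.13 ± 0.22 and no overlap of the groups. The median of that list was 0.25. Both counts stand beside 4.2% of all tested probe sets called as higher and 6.48% called as lower.

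Genes known as targets of the receptors included both higher and lower calls, and each count is to be read against the 4.2% of all tested probe sets called as higher and 6.48% called as lower. The lists use the brightest tested probe set of each gene, and calls were more frequent in a separate fit of bright probe sets only. In that fit of the brightest 30%, with its own adjustment, 229 of 2622 probe sets were called as higher and 359 as lower. How often the main fit called bright probe sets was not counted. Of 21 tested PPAR alpha targets 2 were higher and 3 lower, with a median of -0.10. Those with the largest changes were the thiolase gene Acaa1b (log2 fold change 1.99), the fatty acid hydroxylase gene Cyp4a1 (-0.75, with 1 of 3 probe sets opposite in sign) and the dehydrogenase gene Acadl (-0.57, with overlapping groups). Of 15 tested targets of PXR and CAR 3 were higher and 4 lower, with a median of -0.26, led by Cyp3a2 (-1.71), the sulfotransferase gene Sult2a1 (-1.37) and the glucuronosyltransferase gene Ugt2b1 (1.01). Of 20 tested HNF4 alpha targets none was higher and 3 were lower (6.48% of all tested probe sets were lower), with a median of -9.96e-05. The 3 were the coagulation genes F10 (1.61-fold lower, adjusted p = 0.0195) and Proc (1.52-fold lower, adjusted p = 0.0399) and the apolipoprotein gene Apoa4 (1.51-fold lower, adjusted p = 0.0474).

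Of 7 tested LXR targets limma called 0, where 10.7% of all tested probe sets were called, with a list median of 0.28. The unadjusted limma p was under 0.05 for 2 of these targets, against 1536 of all 5244 tested probe sets. The brightest LXR target, the apolipoprotein gene Apoe, had a log2 fold change of 0.46 ± 0.19 (adjusted p = 0.137). Of 13 tested glucocorticoid receptor targets 2 were lower and none higher (6.48% of all tested probe sets were lower), with a median of -0.29, namely angiotensinogen (Agt, 1.63-fold lower, adjusted p = 0.0102) and the transcription factor gene Cebpb (1.50-fold lower, adjusted p = 0.0186). Of 9 tested thyroid hormone receptor targets the calcium pump gene Atp2a2 was lower (1.57-fold, adjusted p = 0.0195, with 1 of 4 probe sets opposite in sign), with a median of -0.16. Of 6 tested clock genes limma called 0, with an unadjusted p under 0.05 for 3 and a median of 0.25, and the clock output gene Dbp had a log2 fold change of 0.14 ± 0.17 (adjusted p = 0.611) that turned to -0.04 without vehicle replicate 3. Several of these calls were not stable, since Cyp4a1 passed in 11, Acadl in 7, F10 in 12, Proc in 7, Apoa4 in 7, Cebpb in 14 and Atp2a2 in 13 of 18 other settings, and Hdac2 in 14 of 17.

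**Figure D5:**
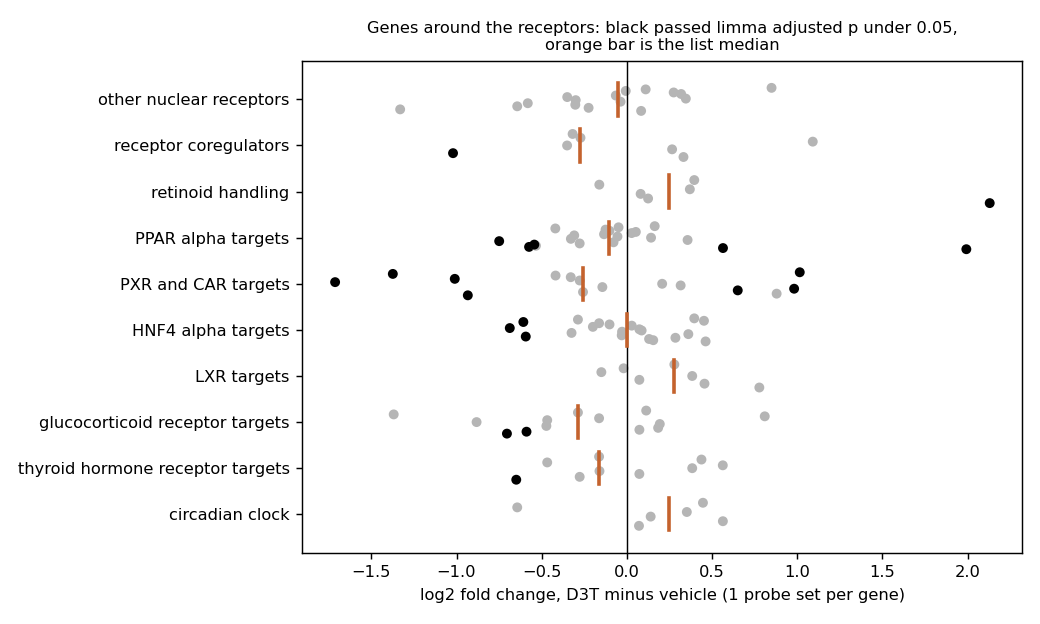
Log2 fold change of D3T minus vehicle (horizontal axis) for the genes in each list around the receptors, 1 probe set per gene, with called genes in black, the others in grey and the list median as an orange bar. Called genes lie on both sides of 0 among PPAR alpha targets and among PXR and CAR targets, and below 0 among HNF4 alpha and glucocorticoid receptor targets.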

How the data were processed

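The deposited values are linear MAS5 signal intensities, 1 per probe set and array, with no detection calls in the table used. MAS5 is named in the submitters' processing notes, with its version, scaling target and filters not given there. All 8 arrays were used, grouped by sample title, and the series design gives 4 rats per group. Intensities carry no read count, and precision is limited by having 4 arrays per group.

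Arrays were rescaled to a 2% trimmed mean of 500, a floor was set at the 20th percentile (20.4), log2 was taken, and the brightest 60% of 8740 non-control probe sets were fitted with limma 3.58.1 in R 4.3.3 (lmFit, eBayes with trend). Fold changes are ratios of geometric means after the floor, so they understate changes of dim probe sets. Each probe set of the receptors was kept, and genes of the lists were represented by their tested probe set with the highest mean. Named genes were the 3 called with the largest change in each list, or the brightest where none passed, and the 4 nearest to Rxra. The members and lists were chosen with earlier results of these data known. Gene symbols came from the platform annotation (7006 probe sets with 1 symbol, 308 with several, 1426 with none), and 6985 identifiers were found in the RefSeq table of GRCr8.

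The fit was tested on simulated data in which 200 of 5244 probe sets were changed. It recovered 23.9% of 1.5-fold, 50.7% of 2-fold and 89.4% of 4-fold changes, with 6 false calls among 115. A receptor that did not pass can therefore still differ by a small amount. The alternatives were other scalings, floors, filters and variance models, a pseudocount of 16, a replicate block, the actin ratio as a covariate and leaving out each array.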

Additional observations from a re-analysis of the deposited data

Results flagged for a closer look

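Within groups of 4 arrays, 4 of the 82 groups looked at had 1 array far from the other 3 by Dixon's test at its 95% critical value. The groups were vehicle and D3T for each receptor probe set with signal, the genes named by rule from each list and the 4 genes nearest to Rxra. Chance marks about 1 in 20 groups. Rxrb read 215.3 on vehicle replicate 3, against 296.4 to 309.8 on the other vehicle arrays. Nr1d1 (M25804_at) read 994.0 on vehicle replicate 1, against 707.7 to 748.7. Thrb read 20.3 on D3T replicate 4, against 34.5 to 38.4. Cebpb read 2016 on vehicle replicate 3, against 2479 to 2559.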

How the results depend on the processing

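Over all probe sets 560 were called, and the count fell to 309 with no filter, 333 with no intensity trend, 290 with the replicate number as a block and 35 with the actin 3′/5′ covariate. Without 1 array it ran from 240 (without vehicle replicate 3) to 695 (without vehicle replicate 2). The log2 fold changes of the 12 receptor probe sets with signal kept their sign in every setting run. Rxra, described without a test, ranged from 2.01 to 2.85. Rxrb passed in 9 of 18 and the called Hnf4a probe set in 5 of 18, the latter also with quantile normalization (0.0259), while D10554_s_at passed in 1 of 18, without D3T replicate 1. With the replicate block Rxrb (0.0898) and Hnf4a (0.101) did not pass and Rxra had a log2 SE of 0.30. Taken over all tested probe sets, same-numbered arrays did not deviate together (correlations of -0.20 to 0.06). These correlations cannot show whether same-numbered arrays share a difference in single genes, which was not tested. Signs turned for Rara with the actin covariate (-0.67) and without 1 array (-0.085 without D3T replicate 4 to 0.54 without D3T replicate 2), and for Dbp without 1 array (-0.037 without vehicle replicate 3 to 0.23 without vehicle replicate 2). The difference in log2 actin ratio ran from -0.27 to -0.16 without 1 array and that of Gapdh from -0.36 to -0.17, and both reached an exact permutation p of 0.0286 without D3T replicate 3. Thrb could not be given a value with the floor at the 40th percentile, which all its arrays lie under. The cause of these changes was not tested. Low signal limits Thrb and the third Nr3c1 probe set.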

Other observations

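Nr0b2, which encodes SHP, a receptor without a DNA-binding domain that represses bile acid synthesis, had 3 tested probe sets and none was called; the gene was named after its values were seen. D86745cds_s_at read 2653, 3572, 2520 and 1233 in vehicle replicates 1 to 4 and 1646, 2179, 3086 and 1426 in D3T replicates 1 to 4. D86580_at read 1598, 1865, 1283 and 941.9 in vehicle and 1257, 1534, 1816 and 771.8 after D3T. In both groups replicate 4 was the lowest array for these probe sets of Nr0b2, and also for the third, D86745exon_s_at, at 201.0 in vehicle and 256.4 after D3T. The log2 fold change of D86745cds_s_at was -0.22 ± 0.32 (limma adjusted p = 0.662), so the differences between rats of 1 group exceeded the difference between groups.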
